A study of Mus musculus with 4 samples.

Results

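Foxp3, Ikzf2, Ikzf4, Lrrc32, Gpr83 and Capg are genes that regulatory T cells are known to express, and their transcripts were followed in single CD4 T cells by T cell receptor V gene, by clonotype size and by co-detection in the same cell. The 6 genes were listed by name, with earlier results of these data known, and all 6 were present among the 32285 genes in the matrices of both mice. The cells came from spleens of B6.H2g7 donors (strain B6.NOD-(D17Mit21-D17Mit10)/LtJ per the labels), aged 6 to 8 weeks. Column-purified CD4 T cells, 5000000 of them, were transferred from 2 donors into 2 separate NOD.Rag1null hosts, a strain without its own lymphocytes of the T and B lineages. On day 14, live CD4+ TCRβ+ cells were isolated by sorting from the spleen of each host. Each host, called mouse 1 and mouse 2 here, gave 1 gene expression library and 1 T cell receptor library, so each comparison sets one class of cells against another inside a mouse, with 2 mice. No untransferred or untreated cells were analysed here, and the labels do not say whether the donors' cells were pooled.

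The transcription factor encoded by Foxp3 defines the regulatory T cell lineage, which restrains other T cells. Helios (Ikzf2) and Eos (Ikzf4) belong to the Ikaros family of zinc finger factors, and Eos is known as a partner of Foxp3 in gene repression. Lrrc32 encodes GARP, which holds latent TGF-β at the surface of activated regulatory cells. Gpr83 encodes a G protein-coupled receptor known as a marker of regulatory cells, and Capg encodes an actin filament capping protein that macrophages also express. In the GRCm38 annotation Foxp3 lies at chrX:7573644-7595245, Ikzf2 at chr1:69531214-69687245, Ikzf4 at chr10:128630843-128645991, Lrrc32 at chr7:98489283-98502181, Gpr83 at chr9:14860210-14870789 and Capg at chr6:72544391-72562983. All 6 are annotated as protein coding, and the whole gene is given in each case.

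The cells kept had 500 or more genes detected, mitochondrial transcripts at 10% or less of their UMIs (unique molecular identifiers, which count captured transcripts), and exactly 1 TRB contig. This left 5993 cells of mouse 1 and 6332 cells of mouse 2, at medians of 5596 and 6219.5 UMIs per cell and with 38725969 and 44796902 UMIs in total. The 2 libraries shared 58 barcodes among kept cells, and 0 of these carried the same TRB CDR3 in both. Transcripts of C1q, Cd79, Cd8 or platelet genes were seen in 7.48% and 9.22% of kept cells, and a cluster led by C1q and class II genes held 0.484% and 0.884% of them. Cells of 1 mouse that shared TRBV, TRBJ and the nucleotides of the TRB CDR3 formed a clonotype, giving 3166 and 3316 clonotypes. Vβ3 cells, the subject of the study's title, were those with TRBV26 (2084 and 1960 cells), and Vβ20 cells those with TRBV23 (959 and 725 cells).

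Clonotypes were either rich in Foxp3-positive cells or nearly free of them, and the TRB CDR3 sequences of the clonotypes at both ends are shown to identify them. They are nucleotide sequences from the deposited contigs, written 5′ to 3′ on the coding strand. The TRB locus lies on chromosome 6. Capitals mark the bases that match neither the germline V nor the germline J gene segment, read from the GENCODE M21 transcripts. For each mouse the 2 clonotypes with the most Foxp3-positive cells come first and the largest clonotype follows.
mouse 1 TRBV5 TRBJ1-1: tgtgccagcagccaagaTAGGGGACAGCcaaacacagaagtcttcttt
mouse 1 TRBV26 TRBJ1-4: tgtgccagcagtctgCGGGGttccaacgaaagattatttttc
mouse 1 TRBV31 TRBJ1-4: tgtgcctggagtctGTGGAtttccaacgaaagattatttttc
mouse 2 TRBV12-2 TRBJ2-4: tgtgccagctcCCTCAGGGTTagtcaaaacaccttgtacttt
mouse 2 TRBV31 TRBJ1-1: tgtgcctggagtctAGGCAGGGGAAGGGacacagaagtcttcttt
mouse 2 TRBV29 TRBJ2-3: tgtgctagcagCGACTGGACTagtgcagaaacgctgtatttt

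A Foxp3 UMI was found in 20 of 24 cells of the first, in 18 of 20 cells of the TRBV26 clonotype, in 15 of 15 cells of the TRBV12-2 clonotype and in 13 of 17 cells of the TRBV31 clonotype of mouse 2. Every cell of these 4 clonotypes had an Ikzf2 UMI. The largest clonotype of mouse 1, with 222 cells, had a Foxp3 UMI in 2 of them, and that of mouse 2, with 366 cells, in 4. Ikzf2 was still detected in 99 and 134 of those cells, and Capg in 43 and 101.

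Over all kept cells, Foxp3 stood at 97.5 CPM in mouse 1 and 122 CPM in mouse 2, where CPM are a gene's UMIs per 1000000 UMIs of the summed cells. At least 1 Foxp3 UMI was found in 919 cells of mouse 1 (15.3%, exact 95% interval 14.4 to 16.3%) and in 1146 cells of mouse 2 (18.1%, 17.2 to 19.1%). These intervals, like the others here, cover counting error only. Foxp3 was detected in 0.949% and 1.04% of cells in clonotypes of 50 or more cells, at medians of 5453 and 5571 UMIs. Whether these UMIs are background or expression was not tested. Among barcodes without a contig and without a Cd3 or Trac UMI, Foxp3 was detected in 2 of 67 and 2 of 42. Their median was 1973 UMIs in each mouse. Ikzf2 was detected in 56.6% and 55.8% of kept cells, Ikzf4 in 7.46% and 8.78%, Lrrc32 in 2.70% and 3.65%, Gpr83 in 1.77% and 2.26%, and Capg in 43.3% and 48.3%. The shares of all 6 genes were within a few percentage points between the mice.

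Cells with Foxp3 carried the other members far more often than cells without it. Ikzf2 was detected in 95.4% and 95.5% of Foxp3-positive cells, against 49.5% and 47.0% of Foxp3-negative cells, in mouse 1 and mouse 2. Ikzf4 was detected in 34.1% and 36.6% of Foxp3-positive cells, against 2.64% and 2.64% of Foxp3-negative cells. For Lrrc32 the shares were 16.2% and 18.6% against 0.256% and 0.347%. Lrrc32 was thereby the member closest to being restricted to Foxp3-positive cells, which made up 92.0% and 92.2% of all cells with an Lrrc32 UMI. Gpr83 was detected in 7.83% and 7.68% of Foxp3-positive cells, against 0.670% and 1.06% of Foxp3-negative cells. Capg was detected in 90.6% and 93.5% of Foxp3-positive cells, against 34.7% and 38.3% of Foxp3-negative cells. Foxp3-positive cells were somewhat deeper, with medians of 6338 and 6597.5 UMIs, against 5522 and 6166 UMIs in Foxp3-negative cells. After each cell was thinned to 2000 UMIs, leaving out 157 and 71 shallower cells, every one of these 5 differences kept its direction in both mice. In thinned cells Lrrc32 was detected in 5.53% and 8.42% of Foxp3-positive cells, against 0.420% and 0.495% of Foxp3-negative cells, and Ikzf4 in 14.2% and 14.4% against 1.37% and 1.69%.

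**Figure D1:**
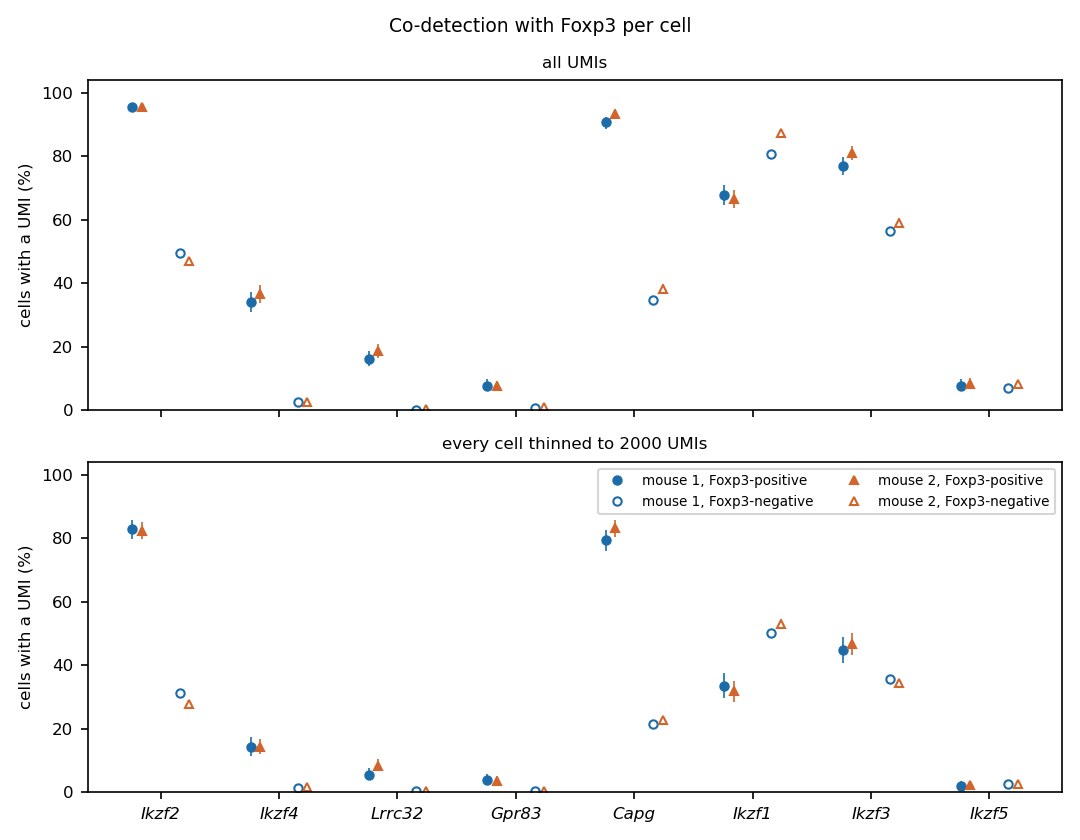
Share of cells with at least 1 UMI of each gene (y axis, percent) in Foxp3-positive cells (filled, left of each pair) and Foxp3-negative cells (open, right), for mouse 1 (circles) and mouse 2 (triangles), with exact 95% intervals. Ikzf2, Ikzf4, Lrrc32, Gpr83, Capg and Ikzf3 sit higher in Foxp3-positive cells with all UMIs and after thinning to 2000 UMIs per cell, Ikzf1 sits lower, and Ikzf5 sits at 7.83% and 8.46% against 7.02% and 8.23% with all UMIs.

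The same was seen in the UMI sums per mouse, which were compared with edgeR's quasi-likelihood test with the mouse as a block. The positive and negative classes were set by Foxp3, so Foxp3 itself was not tested. Ikzf2 stood at 1245 and 1104 CPM in Foxp3-positive cells, against 234 and 187 CPM in Foxp3-negative cells, a log2 fold change of 2.49 ± 0.06 (SE). Capg stood at 1033 and 1174 CPM against 164 and 179 CPM, a log2 fold change of 2.69 ± 0.06. Ikzf4 stood at 62.9 and 71.9 CPM in Foxp3-positive cells, against 4.83 and 4.45 CPM in Foxp3-negative cells, a log2 fold change of 3.87 ± 0.10. Both mice showed each of these rises. Lrrc32 stood at 28.5 and 37.2 CPM against 0.477 and 0.760 CPM, a log2 fold change of 5.72 ± 0.19, the largest increase among all genes that passed the naming rule. Gpr83 stood at 15.02 and 15.1 CPM in Foxp3-positive cells, against 1.56 and 2.17 CPM in Foxp3-negative cells, a log2 fold change of 3.01 ± 0.19. The 5 adjusted p-values from edgeR were 6.4e-52 or less. All 5 tested members were called higher, beside 22.3% of all 13072 genes tested, and 42.7% of genes were called in either direction. In this fit the prior degrees of freedom were infinite, so a gene's own spread between the mice had no weight. In thinned cells the log2 fold change of Lrrc32 was 3.90 and the other 4 stayed between 2.27 and 3.26, all called.

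Of the other Ikaros family genes, Ikzf1 (Ikaros) fell and Ikzf3 (Aiolos) rose in Foxp3-positive cells. Ikzf1 stood at 217 and 198 CPM in Foxp3-positive cells, against 428 and 449 CPM in Foxp3-negative cells (log2 fold change -1.08 ± 0.06, edgeR adjusted p = 8.4e-81). Ikzf3 stood at 309 and 317 CPM in Foxp3-positive cells, against 272 and 242 CPM in Foxp3-negative cells (0.29 ± 0.05, adjusted p = 3.2e-07 from edgeR). Ikzf5 (Pegasus) was not called, at 10.4 and 11.5 CPM against 11.9 and 12.8 CPM (adjusted p = 0.35 from edgeR). Within this gene family, Foxp3-positive cells therefore had more Ikzf2, Ikzf4 and Ikzf3 transcript and less Ikzf1 transcript.

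Of all kept cells, 5.21% and 6.57% had Foxp3, Ikzf2 and Ikzf4 together, and 9.43% and 10.7% had Foxp3 and Ikzf2 without Ikzf4. Foxp3 with Ikzf4 but without Ikzf2 was found in 1 cell of mouse 1 and 3 cells of mouse 2. By contrast, Ikzf2 without Foxp3 or Ikzf4 was found in 2425 and 2365 cells, or 40.5% and 37.4% of kept cells. Of the 5 members other than Foxp3, at least 2 were detected in most Foxp3-positive cells, with none detected in 21 and 18 cells (2.29% and 1.57%). In Foxp3-negative cells none of the 5 was detected in 1633 and 1626 cells (32.2% and 31.4%), and all 5 were detected in 0 and 1 cells. Cells with only 1 Foxp3 UMI had Ikzf2 in 82.9% and 81.4%, and cells with 2 or more Foxp3 UMIs had it in 98.8% and 98.2%.

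The wider program was read from 3 gene lists that were chosen with earlier results of these data known. Of 20 regulatory T cell surface and effector genes, 19 were higher and 1 was lower in Foxp3-positive cells, with a median log2 fold change of 1.71 beside -0.01 over all genes tested. Itgae, the integrin αE chain, stood at 218 and 258 CPM in Foxp3-positive cells, against 6.29 and 8.70 CPM in Foxp3-negative cells. Il2ra, the high-affinity IL-2 receptor chain, stood at 137 and 196 CPM against 8.29 and 8.81 CPM, and Ccr8, a chemokine receptor, at 162 and 209 CPM against 14.6 and 17.3 CPM. The exception was Nrp1, a semaphorin co-receptor used as a marker of thymus-derived regulatory cells, at 69.3 and 68.3 CPM in Foxp3-positive cells against 74.3 and 91.9 CPM in Foxp3-negative cells (log2 fold change -0.27 ± 0.06, edgeR adjusted p = 0.00014). All 10 conventional helper genes were lower, beside 20.5% of all genes. Il21, a follicular helper cytokine, stood at 6.60 and 2.74 CPM in Foxp3-positive cells against 96.0 and 85.4 CPM in Foxp3-negative cells. Themis, a thymocyte selection gene, stood at 42.8 and 50.4 CPM against 355 and 335 CPM, and Cd40lg, the CD40 ligand, at 16.8 and 17.3 CPM against 117 and 129 CPM. Of 20 transcription factor genes related to Foxp3, 6 were higher, 8 were lower and 6 were not called, beside 22.3% of all genes called higher and 20.5% lower. Tcf7 (TCF-1) had the largest decrease of that list, at 66.0 and 60.5 CPM in Foxp3-positive cells against 477 and 519 CPM in Foxp3-negative cells, and Prdm1 (Blimp-1) the largest increase, at 91.7 and 90.2 CPM against 32.9 and 31.8 CPM. Lef1, a relative of Tcf7, stood at 127 and 122 CPM in Foxp3-positive cells against 219 and 231 CPM in Foxp3-negative cells.

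The naming rule took the 6 largest increases and 4 largest decreases that reached 20 CPM in 1 class. After Lrrc32 the increases were Flicr, a noncoding RNA next to Foxp3 known in mouse regulatory cells, Nckap5, Cep112, Rln3 (relaxin 3) and Itgae, with log2 fold changes between 4.99 and 5.70. Flicr overlaps Foxp3 on the same strand in the GENCODE M21 annotation, so its value is uncertain. The decreases were Gcg (the glucagon precursor), Ifitm1, Il21 and Xcl1 (lymphotactin), with log2 fold changes between -5.68 and -4.14. Markers of B cells moved with Foxp3. The summed level of 5 B cell marker genes was 540 and 595 CPM in Foxp3-positive cells, against 73.5 and 85.6 CPM in Foxp3-negative cells. Nearly all of it was Ighm, at 529 and 576 CPM against 72.3 and 83.7 CPM. Cd79b, a B cell receptor component, stood at 10.4 and 18.3 CPM in Foxp3-positive cells against 0.887 and 1.46 CPM in Foxp3-negative cells. Cd79a, its partner, stood at 0.420 and 0.765 CPM against 0.222 and 0.421 CPM. Ms4a1 was at 0 in Foxp3-positive cells of both mice, which allows up to 3 UMIs per class, against 0.0317 and 0.0281 CPM in Foxp3-negative cells. The 8 myeloid markers summed to 195 and 206 CPM in Foxp3-positive cells, against 192 and 186 CPM in Foxp3-negative cells. Most of that sum was Cst3, at 175 and 187 CPM against 154 and 146 CPM. Cd68 stood at 14.4 and 9.29 CPM against 23.7 and 18.2 CPM, and C1qa at 1.12 and 2.73 CPM against 2.98 and 7.18 CPM. Leaving out every cell with a C1q, Cd79, Cd8 or platelet gene UMI left the log2 fold change of Capg at 2.69 and that of Ikzf2 at 2.53. Proliferation markers summed to 1555 and 981 CPM in Foxp3-positive cells, against 951 and 625 CPM in Foxp3-negative cells, and the part of these markers in the results was not tested.

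The few Foxp3-positive cells without an Ikzf2 UMI numbered 42 and 51. Compared with them, Foxp3-positive cells with Ikzf2 were called higher for Ikzf4, at 64.8 and 74.1 CPM against 8.51 and 12.9 CPM (log2 fold change 2.61 ± 0.44, edgeR adjusted p = 3.7e-07). Lrrc32 stood at 29.4 and 38.2 CPM in Ikzf2-positive cells, against 4.25 and 9.65 CPM in Ikzf2-negative cells (2.17 ± 0.60, edgeR adjusted p = 0.0073), and Capg at 1058 and 1198 CPM against 357 and 512 CPM (1.31 ± 0.12, edgeR adjusted p = 1.6e-25). Gpr83 was not called (edgeR adjusted p = 0.94). The Ikzf2-negative sums held only 235948 and 311771 UMIs, so Ikzf4 and Lrrc32 rested on few UMIs there. Prior degrees of freedom were infinite in this fit as well. Ikzf2-positive cells were also deeper, at medians of 6375 and 6678 UMIs, against 5027 and 5951 UMIs in Ikzf2-negative cells. Proliferation markers summed to 1598 and 1001 CPM in Ikzf2-positive cells, against 297 and 436 CPM in Ikzf2-negative cells, and the 5 B cell markers to 553 and 606 CPM against 174 and 266 CPM. The part of depth and of these markers was not tested. Of the 4 members tested 3 were called higher, beside 3.29% of all genes. Foxp3 itself stood at 537 and 605 CPM in Ikzf2-positive cells, against 264 and 322 CPM in Ikzf2-negative cells. With at least 2 UMIs of Foxp3 and Ikzf2 required of positive cells, which left 9 and 17 Ikzf2-negative cells, Ikzf4 had a log2 fold change of 2.41, Lrrc32 of 0.78 and Capg of 0.29, and none of the 3 members was called (edgeR adjusted p between 0.29 and 1.00). In thinned cells the classes were set again on the thinned counts, and the Ikzf2-negative class grew to 102 and 142 cells. None of the 3 members was called there either, with log2 fold changes of 0.55 for Ikzf4, 0.10 for Lrrc32 and 0.0096 for Capg. Cells that lost their Ikzf2 UMIs by thinning enter the negative class, so these values cannot show whether the differences hold at equal depth. DESeq2 called Capg only, with adjusted p = 0.053 for Ikzf4 and 0.61 for Lrrc32. By the same naming rule, the largest decreases were those of Igfbp7, Igfbp4, Gcg and Nrgn, with Igfbp4 at 8.58 and 3.18 CPM against 162 and 225 CPM, while Neil3, Rapgef5, Ube2c, Hmmr, Cep112 and Rln3 had the largest increases. Neil3 and Rapgef5 were at 0 UMIs in the Ikzf2-negative cells, which allows up to 3 UMIs per class. They passed the filter on low counts through the Ikzf2-positive cells alone. Hmmr stood at 0 and 3.22 CPM in Ikzf2-negative cells. The rank of Neil3, Rapgef5 and Hmmr therefore carries little weight. Of the 8 helper genes tested, 6 were lower in Ikzf2-positive cells, namely Cd40lg, Ifng, Il21, Il7r, Igfbp4 and Themis, beside 3.08% of all genes.

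Ikzf2 transcript was not restricted to Foxp3-positive cells. In Foxp3-negative cells it was found in 2513 and 2437 cells, and Foxp3-positive cells made up only 25.9% and 31.0% of all cells with an Ikzf2 UMI. Among Foxp3-negative cells, Ikzf4 stood at 6.06 and 5.09 CPM in Ikzf2-positive cells, against 3.48 and 3.85 CPM in Ikzf2-negative cells (log2 fold change 0.52 ± 0.18, edgeR adjusted p = 0.0496, just inside the threshold of 0.05). Lrrc32 was near its floor, at 0.788 and 1.52 CPM in Ikzf2-positive cells against 0.134 and 0.0543 CPM in Ikzf2-negative cells (3.54 ± 0.62, edgeR adjusted p = 0.00072). It passed the filter on low counts through the Ikzf2-positive cells alone, so this call carries little weight. Capg was lower, at 142 and 160 CPM against 189 and 197 CPM (-0.43 ± 0.04, edgeR adjusted p = 1.0e-06), and Gpr83 was not called (adjusted p = 0.90 from edgeR). The fall of Capg changed direction in cells thinned to 2000 UMIs, where its log2 fold change was 0.63 (edgeR adjusted p = 5.9e-24). Without the mouse as a block Ikzf4, Lrrc32 and Capg were not called (edgeR adjusted p = 0.31, 0.070 and 0.055). Of the 4 members tested 2 were higher and 1 was lower, beside 21.7% of all genes called in either direction. By the naming rule, Ly6c1, Igfbp4, Pdlim4 and Ifitm1 were the largest decreases among genes with Ikzf2, with Igfbp4 at 6.60 and 8.31 CPM against 134 and 198 CPM. The largest increases were Hbb-bs, Cxcl10, Il1r2, Itgb8, Cd83 and Gcg, with Cxcl10, an interferon-induced chemokine, at 39.1 and 28.4 CPM against 10.7 and 9.44 CPM. Hbb-bs, a red cell gene, was higher in mouse 2 (44.9 against 4.99 CPM) and stood at 4.18 against 3.68 CPM in mouse 1.

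In clusters built from all variable genes, 1 cluster stood out for Foxp3, and the levels per cluster are a description only. The regulatory-like cluster, led by Rln3, Foxp3, Itgae, Mmp9 and Ncmap, held 12.3% and 16.2% of kept cells, and Foxp3 was detected in 89.6% and 92.6% of them. Ikzf2 stood there at 1196 and 1109.7 CPM and Capg at 1278 and 1332 CPM. The next highest Foxp3 shares were in the proliferating-like cluster, 28.0% and 28.9%, and in a shallow cluster led by Hs6st3, Ext1 and Plcl1, 15.1% and 14.7%. That shallow cluster, with a median of 3706 UMIs, had the highest Ikzf2 level, 1624 and 1411 CPM. In a Th17-like cluster led by Ifitm1, Capg stood at 880 and 731 CPM while Ikzf2 stood at 20.1 and 29.1 CPM. In a naive-like cluster led by Igfbp4, Ikzf2 stood at 37.7 and 22.1 CPM. Capg was thus found at a high level in 1 cluster with almost no Foxp3 (detected in 1.97% and 1.18% of its cells), and Ikzf2 was low in both the Th17-like and the naive-like cluster.

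Across V genes, Vβ3 cells carried less Foxp3, Ikzf2, Ikzf4, Lrrc32 and Capg transcript than other cells. Foxp3 stood at 59.0 and 90.2 CPM in Vβ3 cells, against 116 and 135 CPM in other cells (log2 fold change -0.76 ± 0.05, edgeR adjusted p = 8.6e-24). It was detected in 8.49% and 13.0% of Vβ3 cells, against 18.98% and 20.4% of other cells. Ikzf4 stood at 8.95 and 11.4 CPM in Vβ3 cells, against 18.7 and 21.2 CPM in other cells (-0.97 ± 0.11, edgeR adjusted p = 7.2e-13). Both mice lay lower for both genes. Lrrc32 stood at 3.57 and 5.92 CPM against 6.66 and 9.19 CPM (-0.74 ± 0.16, edgeR adjusted p = 0.00014), and Capg at 236 and 309 CPM against 368 and 414 CPM (-0.52 ± 0.04, edgeR adjusted p = 2.9e-22). Ikzf2 had the smallest of these falls, at 341 and 346 CPM in Vβ3 cells against 459 and 386 CPM in other cells (-0.29 ± 0.04, edgeR adjusted p = 4.7e-10). Gpr83 was not called, at 4.04 and 5.40 CPM in Vβ3 cells against 4.04 and 4.56 CPM (0.14 ± 0.18, edgeR adjusted p = 0.66). The share of genes called lower was 12.6% over all genes tested, and 5 of 6 members were. With the 12 V genes of at least 100 cells per mouse as separate classes, and TRBV26 against the unweighted mean of the other V genes, no member was called (Foxp3 -0.45, edgeR adjusted p = 0.50). Without the mouse as a block, Ikzf4 kept its call and the other 4 lost it (edgeR adjusted p between 0.10 and 0.27). DESeq2 did not call Ikzf2 or Lrrc32 (adjusted p = 0.38 and 0.26).

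Vβ20 cells, the other large V gene class, showed falls of the same members. Foxp3 stood at 50.2 and 79.8 CPM in Vβ20 cells, against 137 and 146 CPM in cells with neither Vβ3 nor Vβ20 (log2 fold change -1.14 ± 0.09, edgeR adjusted p = 8.9e-11). Ikzf4 fell by 1.11, Lrrc32 by 1.62, Gpr83 by 1.19 and Capg by 0.74 on the log2 scale, each called by edgeR. Ikzf2 fell by 0.24 (edgeR adjusted p = 0.014), with 359 and 377 CPM in Vβ20 cells against 491 and 388 CPM in cells with neither, a difference that in mouse 2 amounted to -0.05 on the log2 scale. All 6 members were lower, beside 7.66% of all genes tested. Ikzf2 and Gpr83 were not called without the mouse as a block (edgeR adjusted p = 0.42 and 0.091), nor with DESeq2, which did not call Lrrc32 either (adjusted p = 0.050). This comparison and that of Vβ3 with other cells share cells, since Vβ20 cells are among the other cells there. Foxp3 was detected in 8.65% and 12% of Vβ20 cells, against 22.3% and 22.1% of cells with neither.

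**Figure D2:**
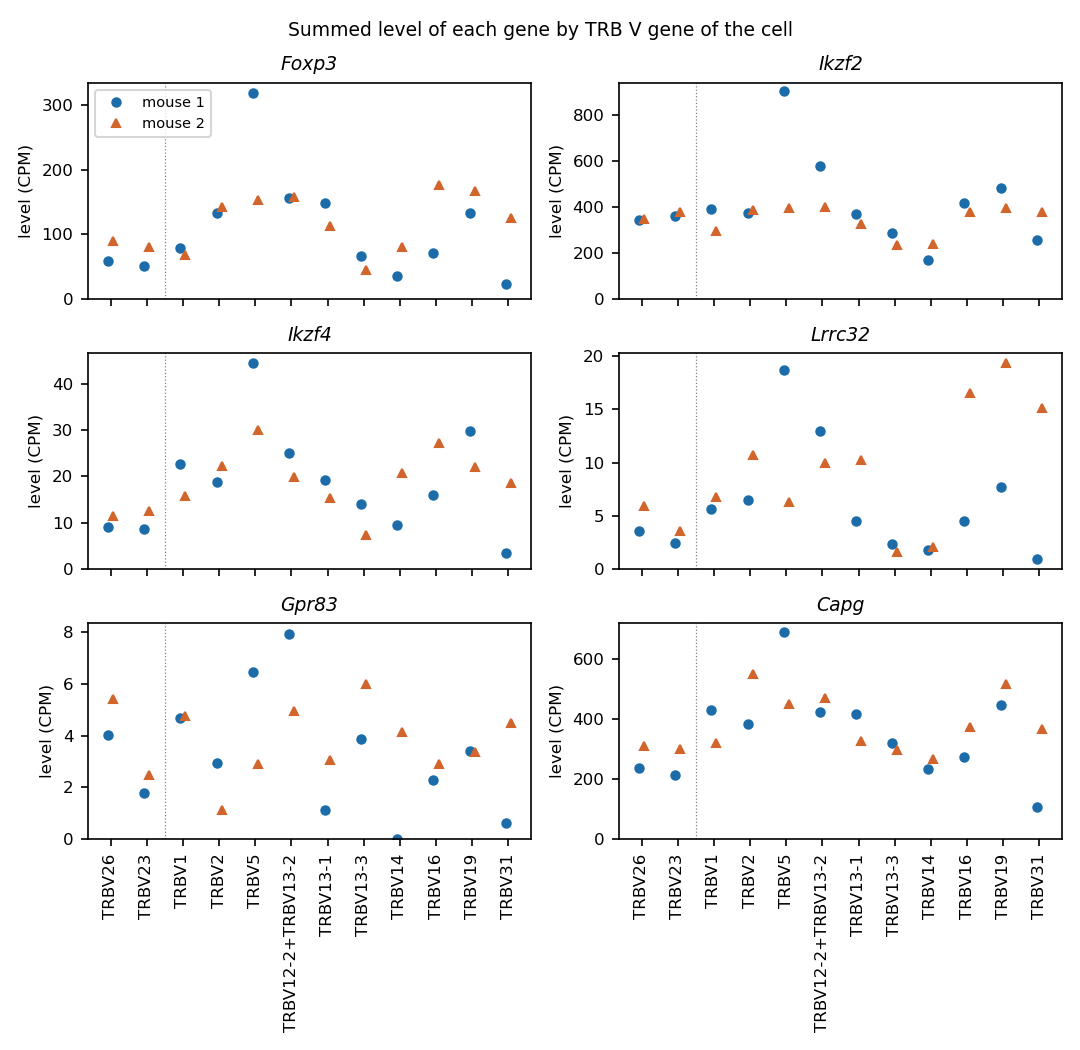
Level of each of the 6 genes (y axes, CPM, from 0) in summed kept cells by TRB V gene (x axis, TRBV26 and TRBV23 first, left of the dotted line), for mouse 1 (circles) and mouse 2 (triangles). TRBV26 and TRBV23 lie low for Foxp3 in both mice, TRBV5 of mouse 1 lies highest at 320 CPM, and TRBV31 differs between the mice, at 23.01 and 126 CPM.

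The V genes outside these classes did not form 1 level. Foxp3 was detected in 50.8% and 24.5% of TRBV5 cells, in 23.1% and 31.7% of TRBV19 cells and in 25.7% and 25.6% of cells with the contig call TRBV12-2+TRBV13-2. It was detected in 7.95% and 11.6% of TRBV14 cells, in 13.6% and 7.83% of TRBV13-3 cells and, with a wide gap between the mice, in 3.98% and 21.8% of TRBV31 cells. The order of the V genes in between changed from mouse to mouse. Large clonotypes with few Foxp3-positive cells made up much of some V genes. In mouse 1, TRBV31 had a clonotype of 222 cells, 42.1% of its 528 cells, and another of 216 cells, each with 2 Foxp3-positive cells. The largest clonotype held 58.1% of TRBV13-1 cells in mouse 2, with 3 among 158. In TRBV14 the largest clonotype held 50% and 53.5% of cells, and the next held 60 and 31 cells, with 2 Foxp3-positive cells in each.

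Counting each clonotype once removes the weight of the large ones. A clonotype was counted as having Foxp3 when at least 50% of its cells had a UMI of it. For Vβ3 this was 102 of 1446 clonotypes (7.05%) in mouse 1 and 161 of 1426 (11.3%) in mouse 2, and for Vβ20 it was 42 of 636 (6.60%) and 49 of 507 (9.67%). Among the 10 other V genes of at least 100 cells per mouse, the share lay between 25.8% and 50.9% in mouse 1 and between 17.4% and 38.2% in mouse 2. Vβ3 and Vβ20 thus had the lowest shares of the 12 V genes in both mice. With 1 cell drawn per clonotype, the log2 fold change of Foxp3 was -1.49 for Vβ3 against other cells (edgeR adjusted p = 4.5e-09) and -2.39 for Vβ20 against cells with neither (edgeR adjusted p = 9.8e-06). In the same draw Ikzf2 was at -0.67 and -0.70 and Ikzf4 at -1.51 and -2.07. Lrrc32 was at -1.54 and -2.67 and Capg at -0.96 and -1.43. Each was called, and the share of all genes called in this draw is not given here. Gpr83 was at -0.57 for Vβ3 (edgeR adjusted p = 0.062) and at -2.44 for Vβ20 (edgeR adjusted p = 0.0037).

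Foxp3-positive Vβ3 cells, 177 and 254 of them, were next set against 742 and 892 Foxp3-positive other cells. The Vβ3 cells were deeper, at medians of 6960 and 7674 UMIs, against 6161.5 and 6273 UMIs in the other cells. Their proliferation markers summed to 1135 and 888 CPM, against 1661 and 1013 CPM in the other cells. The part of depth and of these markers was not tested. Ikzf2 stood at 1083 and 939 CPM in Foxp3-positive Vβ3 cells, against 1286 and 1158 CPM in Foxp3-positive other cells (log2 fold change -0.25 ± 0.05, edgeR adjusted p = 7.2e-06). Ikzf4 stood at 50.2 and 52.5 CPM against 66.1 and 78.4 CPM (-0.48 ± 0.12, edgeR adjusted p = 0.0045). Lrrc32, Gpr83 and Capg were not called (edgeR adjusted p = 0.99, 0.97 and 0.11), and Capg was at 1130 and 1205 CPM against 1009 and 1163 CPM. Ikzf3 was higher, at 360 and 384 CPM in Foxp3-positive Vβ3 cells against 295 and 295 CPM in Foxp3-positive other cells (0.36 ± 0.06, edgeR adjusted p = 2.9e-06). Of the 5 members tested 2 were lower, beside 1.03% of all genes. The 2 calls were lost without the mouse as a block and with DESeq2 (adjusted p between 0.53 and 1.00), and Ikzf4 was not called with 1 cell per clonotype (edgeR adjusted p = 0.099).

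In Foxp3-negative cells, a comparison added after seeing the data, Ikzf2 went the other way. It was detected in 55.8% and 57.9% of Foxp3-negative Vβ3 cells and in 56.2% and 57.7% of Foxp3-negative Vβ20 cells, against 41.7% and 38.1% of Foxp3-negative cells with neither. Its level was 246 and 226 CPM in Foxp3-negative Vβ3 cells, against 228 and 169 CPM in Foxp3-negative other cells (log2 fold change 0.25 ± 0.05, edgeR adjusted p = 1.1e-05). For Vβ20 it was 250.3 and 243 CPM, against 219.6 and 154 CPM in cells with neither (0.42 ± 0.09, edgeR adjusted p = 0.0068). Neither difference was called with 1 cell per clonotype, where the log2 fold changes were 0.086 and 0.34 (edgeR adjusted p = 0.50 and 0.072). The mice went in opposite directions in that setting. In mouse 1 Ikzf2 was lower, at 242 against 264 CPM for Vβ3 and at 255 against 271 CPM for Vβ20. In mouse 2 it was higher, at 227 against 180 CPM for Vβ3 and at 261 against 149 CPM for Vβ20. Gpr83 was higher in Foxp3-negative Vβ3 cells, at 2.77 and 3.12 CPM against 0.887 and 1.73 CPM (1.16 ± 0.31, edgeR adjusted p = 0.0019), and was likewise not called with 1 cell per clonotype (edgeR adjusted p = 0.67). Capg and Ikzf4 were lower in Foxp3-negative Vβ3 cells with all cells (-0.66 and -0.67) and with 1 cell per clonotype (-0.88 and -0.90), each called by edgeR. Lrrc32 was lower with all cells, at 0.0894 and 0.178 CPM in Foxp3-negative Vβ3 cells against 0.690 and 1.03 CPM in Foxp3-negative other cells (-2.63 ± 0.69, edgeR adjusted p = 0.0019). It rested on few UMIs and passed the filter on low counts through the other cells alone, so the call carries little weight. With 1 cell per clonotype Lrrc32 did not pass that filter and was not tested. The share of all genes called among Foxp3-negative cells was 23.2% for Vβ3 and 13.4% for Vβ20, and with 1 cell per clonotype 16.8% and 19.3%. A cell with 0 Foxp3 UMIs may still express the gene. In clonotypes of 5 or more cells with Foxp3 in at least 50%, Foxp3-negative cells had Capg in 23 of 26 and 12 of 14. The part of such cells in these differences was not tested.

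Over the 12 V genes in both mice, the gene whose level followed that of Foxp3 most closely was Il2ra, with a Pearson correlation of 0.958 over 24 values of log2(CPM + 1) centred within each mouse. Cep112 (0.931), Ecm1 (0.914), Itgae (0.912) and Capg (0.894) followed among genes with a mean of at least 20 CPM. Of the members, Ikzf4 stood at 0.905, Lrrc32 at 0.870, Ikzf2 at 0.844 and Gpr83 at 0.410. The genes closest to Ikzf2 were Arl5a (0.906) and Cep112 (0.887), those closest to Ikzf4 were Il2ra (0.910) and Foxp3 (0.905), and those closest to Lrrc32 were Foxp3 (0.870) and Neb (0.867). Capg was closest to Il2ra (0.933) and Ighm (0.923), and Gpr83 to Pde4dip (0.735) and Slfn8 (0.693). These correlations describe 24 sums that come from 2 libraries and share their cells' depth.

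Expansion, meaning a clonotype of 2 or more cells, was compared with single-cell clonotypes. Over all cells Foxp3 stood at 94.8 and 115 CPM in expanded cells, against 102 and 131 CPM in single cells, a log2 fold change of -0.14 ± 0.05 that barely passed the threshold (edgeR adjusted p = 0.0495). Gpr83 was lower too, at 2.97 and 4.39 CPM against 5.73 and 5.39 CPM (-0.58 ± 0.19, edgeR adjusted p = 0.044). Ikzf2, Ikzf4, Lrrc32 and Capg were not called (edgeR adjusted p between 0.26 and 0.91). With expansion set at 5 or more cells, Foxp3 was at -0.72, Ikzf2 at -0.31, Ikzf4 at -0.66, Lrrc32 at -0.71, Gpr83 at -0.92 and Capg at -0.34 (edgeR adjusted p between 0.00010 and 0.015). The share of all genes called lower in that setting is not given here. With 2 or more cells, 2 of 6 members were lower, beside 11.7% of all genes. Ikzf3 was higher, at 332 and 318 CPM in expanded cells against 195 and 175 CPM in single cells (0.82 ± 0.04, edgeR adjusted p = 5.9e-08). The call on Foxp3 was lost under 6 alternatives that kept its direction, with edgeR adjusted p-values of 0.064 with RLE factors and 0.62 without the block. When clonotypes of 20 or more cells were left out, an alternative added after seeing the data, Foxp3 was higher in expanded cells (0.38, edgeR adjusted p = 3.9e-06), as were Ikzf2 (0.36), Ikzf4 (0.34) and Capg (0.35).

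The direction depended on the V gene class. In Vβ3 cells, Foxp3 stood at 76.9 and 127 CPM in expanded cells, against 42.4 and 64.5 CPM in single cells (log2 fold change 0.92 ± 0.12, edgeR adjusted p = 0.00010). Lrrc32 stood at 5.79 and 8.47 CPM against 1.52 and 4.14 CPM (1.31 ± 0.28, edgeR adjusted p = 0.0062). Ikzf2 stood at 393 and 424 CPM in expanded Vβ3 cells, against 293 and 292 CPM in single Vβ3 cells (0.49 ± 0.07, edgeR adjusted p = 0.00048). Capg rose by 0.48 ± 0.07 and Ikzf4 by 0.65 ± 0.19 on the log2 scale (edgeR adjusted p = 0.00031 and 0.041). Gpr83 was not called (0.39 ± 0.30, edgeR adjusted p = 0.50), and its 2 mice went in opposite directions. Of 6 members 5 were higher, beside 5.73% of all genes. None of the 5 was called without the mouse as a block (edgeR adjusted p between 0.11 and 0.24), and DESeq2 did not call Ikzf4 (adjusted p = 0.18). Proliferation markers summed to 1159 and 704 CPM in expanded Vβ3 cells, against 546 and 341 CPM in single Vβ3 cells, and their part was not tested.

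In other cells all 6 members were lower with expansion, beside 12.3% of all genes, and proliferation markers summed to 1267 and 804 CPM in expanded cells against 970 and 759 CPM in single cells. Foxp3 stood at 101 and 112 CPM in expanded other cells, against 148 and 178 CPM in single other cells (log2 fold change -0.61 ± 0.09, edgeR adjusted p = 8.3e-05). Gpr83 fell by 1.05, Lrrc32 by 0.83, Ikzf4 by 0.49, Capg by 0.30 and Ikzf2 by 0.23 on the log2 scale (edgeR adjusted p between 0.0019 and 0.024). Without the mouse as a block Gpr83 alone was called, and DESeq2 called Foxp3 and Capg. These falls were not called in an alternative added after seeing the data, which kept 1641 and 1497 of 2653 and 2949 expanded other cells. The reason was not tested. With clonotypes of 20 or more cells left out, Foxp3 was at 0.10 (edgeR adjusted p = 0.51), Ikzf4 at 0.092, Lrrc32 at -0.12 and Gpr83 at -0.30, none of them called, while Ikzf2 (0.22, edgeR adjusted p = 0.018) and Capg (0.20, edgeR adjusted p = 0.040) were higher in expanded other cells.

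**Figure D3:**
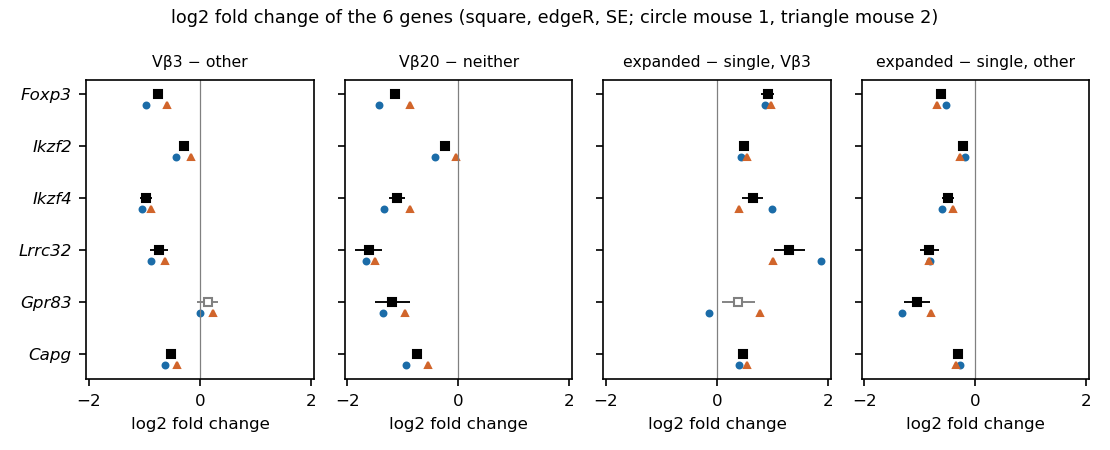
log2 fold change of each gene (x axes) in 4 comparisons, with the edgeR estimate and its SE as a square (black where the adjusted p was under 0.05, open grey otherwise) and the fold change within mouse 1 (circle) and mouse 2 (triangle). All squares but that of Gpr83 lie left of 0 for Vβ3 and all lie left of 0 for Vβ20. For expansion, with clonotypes of all sizes included, the squares lie right of 0 in Vβ3 cells and left of 0 in other cells.

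The difference between these expansion effects was tested as an interaction, Vβ3 minus other cells. It was 1.53 ± 0.15 for Foxp3 (edgeR adjusted p = 2.2e-05), 2.14 ± 0.33 for Lrrc32, 1.44 ± 0.38 for Gpr83, 1.13 ± 0.22 for Ikzf4, 0.78 ± 0.09 for Capg and 0.71 ± 0.10 for Ikzf2 (edgeR adjusted p between 0.00013 and 0.030). All 6 members were called, beside 3.66% of all genes called in that direction and 6.3% in either. With clonotypes of 20 or more cells left out, Foxp3 and Lrrc32 kept their call, and Ikzf2 (0.28), Ikzf4 (0.61), Gpr83 (0.58) and Capg (0.25) did not (edgeR adjusted p between 0.12 and 0.65). Without the mouse as a block none of the 6 was called (edgeR adjusted p between 0.082 and 0.24).

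**Figure D4:**
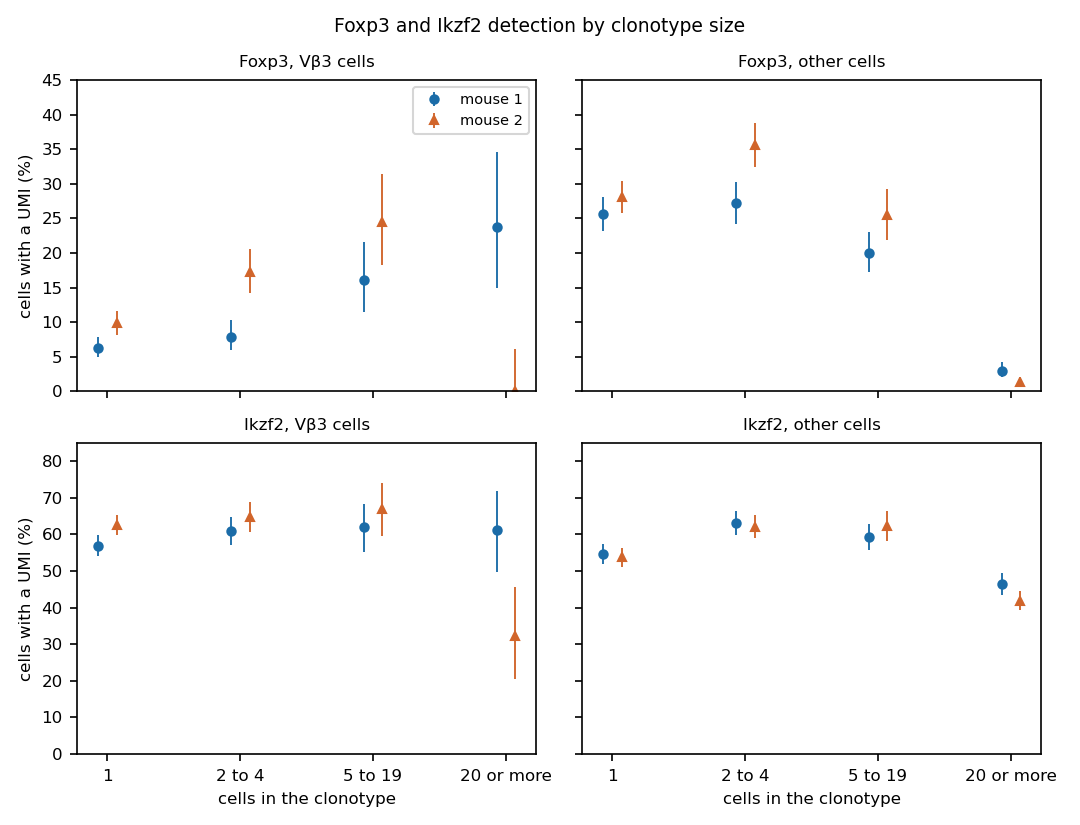
Share of cells with a UMI (y axes, percent) of Foxp3 (top) and Ikzf2 (bottom) by the number of cells in the clonotype (x axis), in Vβ3 cells (left) and other cells (right), for mouse 1 (circles) and mouse 2 (triangles), with exact 95% intervals. In other cells the Foxp3 share of clonotypes of 20 or more cells is 2.96% and 1.31%, below all smaller sizes, while in Vβ3 cells it is higher at 5 to 19 cells than at 1 cell.

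By size class, Foxp3 was detected in 6.32% and 9.81% of Vβ3 cells in single-cell clonotypes, in 7.88% and 17.2% at 2 to 4 cells and in 16.1% and 24.4% at 5 to 19 cells. At 20 or more cells the Vβ3 shares were 23.8% of 80 cells from 3 clonotypes in mouse 1, where 18 of the 19 Foxp3-positive cells belonged to the TRBV26 clonotype shown above, and 0 of 59 cells from 1 clonotype in mouse 2, which allows up to 6.06% by the exact interval. In other cells the shares were 25.6% and 28.0% in single-cell clonotypes, 27.1% and 35.6% at 2 to 4 cells, 20.1% and 25.4% at 5 to 19 cells, and 2.96% and 1.31% at 20 or more cells. The last class held 1012 cells from 16 clonotypes and 1452 cells from 18. Ikzf2 changed less with size in other cells, with 54.6% and 53.7% at 1 cell and 46.4% and 41.9% at 20 or more cells. The size of a clonotype here is the number of its cells that were captured.

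Clonotypes of 5 or more cells numbered 140 and 113, and their Foxp3-positive shares lay near the ends of the scale. No Foxp3 UMI was found in 94 and 67 of them, and at least 80% of cells were Foxp3-positive in 24 and 23. Only 9 of all 253 lay from 20% to under 50%, and each of those was at 20%, with 1 cell of 5 or 2 cells of 10. Among Vβ3 clonotypes of this size, 5 of 35 and 5 of 23 had at least 50% Foxp3-positive cells, against 23 of 105 and 19 of 90 in other V genes. The largest clonotypes with at least 50% Foxp3-positive cells held 24 and 17 cells, whereas the largest under 20% held 222 and 366 cells. Clonotypes rich in Foxp3 were therefore all within the lower range of sizes.

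**Figure D5:**
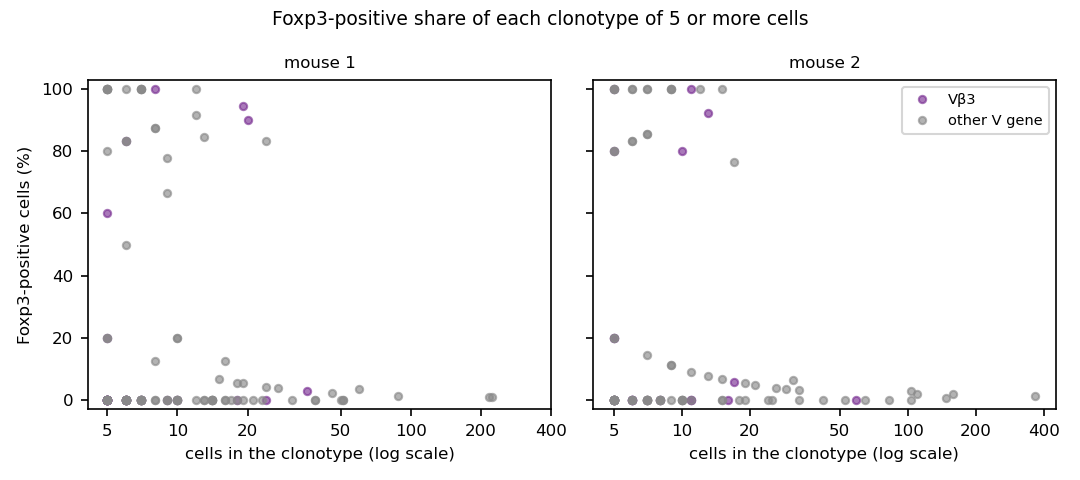
Share of Foxp3-positive cells (y axis, percent) in each clonotype of 5 or more cells against its number of cells (x axis, log scale), in mouse 1 (left) and mouse 2 (right), with Vβ3 clonotypes in purple and others in grey (points of equal value overlap). The points lie along the top and the bottom of the plot, and none above 50% lies beyond 24 cells.

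The Foxp3-positive cells of these Foxp3-rich clonotypes, 214 and 178 cells, all had Ikzf2, with Capg in 97.7% and 94.9%, Ikzf4 in 44.9% and 39.3%, Lrrc32 in 19.2% and 25.8% and Gpr83 in 10.7% and 14.0%. The same clonotypes had 26 and 14 cells without a Foxp3 UMI, which were shallower, at medians of 4082 and 4940 UMIs, against 6967 and 7231 UMIs in their Foxp3-positive sisters. Ikzf2 was detected in 25 of 26 and 12 of 14 of these Foxp3-negative cells, and Capg in 23 of 26 and 12 of 14. In clonotypes of 5 or more cells without any Foxp3 UMI, Ikzf2 was detected in 49.6% and 45.7% of cells, Capg in 32.6% and 41.3%, Ikzf4 in 1.29% and 1.83%, Lrrc32 in 0.198% of 1008 cells and in 0 of 929 cells, which allows up to 0.396% by the exact interval, and Gpr83 in 0.198% and 0.323%. Cells without a Foxp3 UMI thus differed in the other members according to their clonotype, in numbers that are small for the Foxp3-rich ones.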

How the data were processed

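Per the submitters' processing notes, the single-cell 5′ libraries (10x Genomics, v2 chemistry per the labels) came through Cell Ranger 7.0.1, and the builds mm10 and GRCm38 are named. The authors' deposited matrices are UMI counts for each gene in each barcode, and the deposited contig tables hold read and UMI counts per TCR contig. Barcodes with 2 or more TRB contigs (708 and 702) were left out, which also removes some doublets. No doublet caller was run.

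UMIs were summed per mouse and class, and edgeR 4.0.16 tested these totals (TMM, filterByExpr, quasi-likelihood F test, mouse as block, Benjamini-Hochberg over all tested genes, threshold 0.05). The mouse pairs the classes, since both come from the same animal. With 1 residual degree of freedom (3 for the interaction fit), p-values lean on the spread pooled across genes. Prior degrees of freedom were 93.5 for Vβ3, 27.4 for Vβ20, 11.3 for expansion, 12.4 for the interaction fit, 13.6 for Ikzf2 in Foxp3-negative cells and infinite in the other fits. Both mice are single animals, and differences between donors were not measured. Shares have Clopper-Pearson 95% intervals. Clusters came from scanpy 1.11.5 (2000 variable genes, 30 components, 15 neighbours, resolution 0.6). Alternatives included DESeq2 1.42.0, RLE factors, no filter on low counts, thinning, and cells above 3 times the median UMIs left out.

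The members, the gene lists and the naming rule were chosen with earlier results of these data known. The rule names the members and the other Ikaros genes throughout, the largest changes in the Foxp3 and Ikzf2 comparisons, and the 3 list members with the smallest p (the largest change where p was 0 to machine precision) plus those that went against their list. Ms4a1, Cd79a, Cd79b, C1qa, Cst3, Cd68 and Ighm were named after their values were seen.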

Additional observations from a re-analysis of the deposited data

Results flagged for a closer look

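The effect of clonal expansion differed between Vβ3 and other cells for 8 genes, by an interaction test in edgeR with the mouse as a block. The difference, the log2 fold change of expanded against single cells in Vβ3 cells minus that in other cells, was 1.53 for Foxp3, 0.71 for Ikzf2, 1.13 for Ikzf4, 2.14 for Lrrc32, 1.44 for Gpr83 and 0.78 for Capg. For these 6 genes it was positive in both mice. It was -0.25 for Ikzf1 and -0.36 for Ikzf3 (edgeR adjusted p = 0.025 and 0.010). Ikzf3 was higher in expanded cells of both classes, by 0.56 in Vβ3 cells and by 0.92 in other cells. Clonotypes of 20 or more cells made up 80 and 59 Vβ3 cells, against 1012 and 1452 other cells, and without them the calls on Ikzf2, Ikzf4, Gpr83 and Capg were lost. The part of individual large clonotypes was not tested.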

How the results depend on the processing

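Of 397 values of the 6 members under alternatives, 299 kept their side of the threshold with no change of sign in a called value, 78 lost the call, 6 gained one and 14 changed sign. With 1 mouse left out, 105 of 108 member values stayed within the spread between the mice. The estimate from both mice lies near their mean, so almost any gap between the mice passes this rule. No stability can be read from that count. The values outside the spread were Lrrc32 for expansion in other cells (-0.81), for Foxp3 (5.44) and for Ikzf2 among Foxp3-negative cells (1.87). Without the replicate block, that is, without pairing the classes of a mouse, the number of genes called was 273 for Vβ3 (2952 with it), 336 for Vβ20 (1746), 722 for expansion (3195), 70 for expansion in Vβ3 cells (1108), 1186 in other cells (2906), 48 for their difference (757), 3117 for Foxp3 (5586), 266 for Ikzf2 among Foxp3-positive cells (676), 8 for Vβ3 among Foxp3-positive cells (263) and 229 for Ikzf2 among Foxp3-negative cells (2766). In the same order DESeq2 called 681, 357, 966, 561, 1253, 342, 2617, 118, 9 and 663 genes. V genes as classes gave 657 for Vβ3, expansion of 5 or more cells 1667 in Vβ3 cells, and clonotypes under 20 cells 389 for the difference. Thinning gave 3043 for Foxp3 and 87 for Ikzf2 among Foxp3-positive cells, where a minimum of 2 UMIs gave 40 and leaving out cells with other-cell transcripts 309. For Vβ3 among Foxp3-positive cells, 1 cell per clonotype gave 97.

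The alternatives on Foxp3-negative cells and on clonotypes under 20 cells were chosen after seeing the data. The following log2 fold changes had the opposite sign to the reported ones. With 1 cell per clonotype, Ikzf1 was 0.18 and Ikzf3 0.071 for Vβ3, and Ikzf3 0.11 for Vβ20. In Foxp3-negative cells, Ikzf2 was 0.25 for Vβ3 and 0.42 for Vβ20, and Gpr83 0.0093 for Vβ20. With both, Ikzf2 was 0.086 and 0.34 and Ikzf3 0.10 and 0.34. For expansion, Ikzf2 was -0.31 at 5 or more cells. Without clonotypes of 20 or more cells, Foxp3 was 0.38, Ikzf4 0.34 and Capg 0.35 over all cells, and Foxp3 0.10, Ikzf2 0.22, Ikzf4 0.092, Capg 0.20 and Ikzf1 -0.045 in other cells. Ikzf1 was 0.20 for Ikzf2 among Foxp3-positive cells at 2 or more UMIs, and Capg 0.63 for Ikzf2 among thinned Foxp3-negative cells. Cells that lost their Foxp3 UMIs by thinning enter that last class, and their part was not tested. The cause of the other changes of sign was not tested either. Lrrc32 and Gpr83 rest on few UMIs, which limits their precision.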
